A study of Mus musculus with 18 samples.

Results

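Cytochrome P450 enzymes of families 1 to 4 were examined in sorted epithelial cells of female mice, taken from the ileum, the last stretch of the small intestine. The members were the protein-coding genes of the GENCODE M21 annotation (build GRCm38) whose symbol is Cyp, a family number from 1 to 4, a subfamily letter and a gene number. There were 80 such genes in 21 subfamilies, of 47729 genes in the tables. The rule itself uses no expression values, but it was set with earlier results of these data known. Of the 18 RNA sequencing libraries 6 were virgin, 6 pregnant and 6 pseudopregnant. All were labelled ileum and female, from mice kept on RM1 chow for the experiment. Pseudopregnancy is the hormonal state that follows an infertile mating, without embryos. Strain, age, day of pregnancy, sorting markers, hour of collection and whether each library came from 1 mouse are not given in the labels, so p-values measure the spread between these libraries. The series addresses growth of the maternal gut in pregnancy and lactation.

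P450 enzymes are haem-containing monooxygenases of the endoplasmic reticulum that take their electrons from the reductase Por. Families 1 to 3 oxidise drugs, plant and food compounds, steroids, retinoids and polyunsaturated fatty acids, and family 4 mainly hydroxylates fatty acids and eicosanoids at the end of the chain. In the intestine they are enzymes of first-pass metabolism, sit mainly in the absorptive enterocytes of the villus, and many are induced through receptors for foreign compounds: Cyp1a1 through the aryl hydrocarbon receptor Ahr, Cyp2b and Cyp3a genes through Nr1i3 (CAR) and Nr1i2 (PXR).

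The tested member with the largest fold difference between group means was Cyp3a44, a Cyp3a gene best known from female mouse liver, which lies on the minus strand at chr5:145773983-145805874 (GRCm38). Its close relatives Cyp3a41a, Cyp3a41b, Cyp3a16 and Cyp3a11 lie on the same chromosome. The same 60 coding bases (coding positions 232 to 291, minus strand) are shown in 4 of these genes because such differences separate the reads of these genes. Capitals mark in Cyp3a44 the bases that differ from Cyp3a41a, and in the others the bases that differ from Cyp3a44.
Cyp3a44, chr5:145799348-145799407: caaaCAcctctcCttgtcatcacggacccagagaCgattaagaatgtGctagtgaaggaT
Cyp3a41a, chr5:145713541-145713600: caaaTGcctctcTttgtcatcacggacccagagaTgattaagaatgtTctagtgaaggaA
Cyp3a16, chr5:145463096-145463155: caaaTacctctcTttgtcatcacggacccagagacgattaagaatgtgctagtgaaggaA
Cyp3a11, chr5:145873459-145873518: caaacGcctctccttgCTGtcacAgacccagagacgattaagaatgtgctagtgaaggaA
Cyp3a44 differs here from Cyp3a41a and Cyp3a11 at 6 bases each and from Cyp3a16 at 3. Over the whole coding sequence of 1515 bases, 95.8% of the bases of Cyp3a44 were identical to those of Cyp3a41a, 94.9% to Cyp3a11 and 92.4% to Cyp3a16, against 75.5% for Cyp3a13. Of all runs of 75 bases in its annotated transcripts, 11.02% also occurred in another gene, and 26.5% of runs of 50 bases and 5.37% of runs of 100 bases did. Cyp3a41a and Cyp3a41b shared 95.3% and 90.9% of their 75-base runs with another gene, almost all with each other, so their counts cannot be told apart.

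The promoters of these genes and of Cyp1a1 are shown for the letters of known regulator sites (RefSeq promoters, GRCm38.p6, 5′ to 3′ on the gene's strand). Capitals mark CAAAGTCCA, a form of the site of the enterocyte and liver factor HNF4, or its closest match, and in Cyp1a1 GCGTG, the core of the site of the aryl hydrocarbon receptor, followed by TATAAA. The Cyp1a1 bases lie inside the GENCODE gene, whose annotated start is farther upstream than the RefSeq start.
Cyp3a11, chr5:145879929-145879988, minus strand: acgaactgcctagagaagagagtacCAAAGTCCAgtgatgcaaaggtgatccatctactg
Cyp3a41a, chr5:145720197-145720256, minus strand: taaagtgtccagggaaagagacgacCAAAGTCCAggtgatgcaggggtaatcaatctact
Cyp3a44, chr5:145805935-145805994, minus strand: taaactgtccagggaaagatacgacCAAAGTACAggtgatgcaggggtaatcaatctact
Cyp2c65, chr19:39060865-39060924, plus strand: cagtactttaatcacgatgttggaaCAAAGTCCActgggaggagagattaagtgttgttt
Cyp1a1, chr9:57697534-57697593, plus strand: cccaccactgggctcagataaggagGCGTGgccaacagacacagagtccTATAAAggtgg
The Cyp3a44 promoter holds the HNF4 letters with 1 substitution, C7A, counted from 1 at the 5′ end of the 9 letters. Promoters of 300 bases were found for 65 of the 80 members, some with several starts. Searched on both strands, CAAAGTCCA occurred in 13.9% of the 72 promoters of members and in 0.475% of all 32851 promoters of that length. The 10 members with it were Cyp3a11, Cyp3a16, Cyp3a41a, Cyp3a41b, Cyp2c40, Cyp2c65, Cyp2c67, Cyp2c68, Cyp2c69 and Cyp2c70, several of which are near-copies of each other. TATAAA occurred in 40.3% of member promoters against 13.6% of all, and GCGTG in 19.4% against 32.4%. The nuclear receptor sites known as DR1 and DR3 occurred in no member promoter and in 0.0396% and 0.00609% of all promoters, so their absence here says nothing of the members. A match is a run of letters, not a measured binding site.

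Library depth ran from 24.9 to 37.3 M counts. The low-count filter left 14675 genes, among them 35 members from 14 subfamilies. Of the 45 members below it, 11 had no count in any library, 15 had 1 to 9 counts in all 18 libraries together and 19 had more, up to 131 for Cyp2d10. The lowest total that passed was 205, for Cyp4f39. A count of 0 in all 559.1 M counts allows up to 3 counts, or 0.00537 CPM (counts per M counts of a library), for counting error only. The summed level of 6 epithelial markers (Epcam, Cdh1, Krt8, Krt18, Krt20 and Vil1) was 11616 to 15393 CPM in the virgin group, 11693 to 15469 CPM in the pregnant group and 9613 to 15896 CPM in the pseudopregnant group. P450 genes are liver genes too: of 7 hepatocyte markers 4 passed the filter and none was at 0 in every library, Alb reached at most 0.553 CPM, and the summed level, mostly Cps1, which enterocytes also express, was 262 to 599, 310 to 591 and 230 to 966 CPM in the same order. Of 10 leukocyte markers 4 passed and none was at 0 throughout, with summed levels of 11.99 to 41.1, 14.5 to 41.8 and 20.7 to 34.0 CPM. The part of these cells in the P450 values was not tested.

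The ileal P450 repertoire was concentrated in few genes. Members took 0.377% of all counts, and 5 genes, Cyp4f14, Cyp4v3, Cyp3a13, Cyp4f16 and Cyp2d26, held 68.0% of these. By subfamily, Cyp4f held 45.0% of member counts, Cyp3a 17.8%, Cyp4v 13.1%, Cyp2c 6.77%, Cyp2d 5.92%, Cyp2j 4.76%, Cyp4b 2.85% and Cyp2s 1.97%. Cyp2b and Cyp2u each held under 1%. Of the tested members, 20 had a mean of at least 10 CPM over the 18 libraries, 8 lay between 1 and 10, and 7 were below 1. Virgin libraries gave members 0.356% ± 0.101 (SD, n = 6) of their counts, pregnant ones 0.407% ± 0.073 and pseudopregnant ones 0.363% ± 0.070, with overlapping ranges.

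Levels between genes were compared per kilobase of annotated exons, over all 18 libraries. Cyp4f14, an omega-hydroxylase of leukotrienes and fatty acids, stood first with 542 ± 134 CPM per kilobase (SD, n = 18). The next, Cyp4v3, a fatty acid omega-hydroxylase, and Cyp3a13, the main mouse intestinal Cyp3a, followed with 129 ± 44.4 and 127 ± 35.0 CPM per kilobase, which did not differ beyond their spread. Cyp2d26 had 109 ± 37.5, Cyp3a25 82.6 ± 28.8 and Cyp4f16 67.1 ± 21.2 CPM per kilobase. The leading Cyp2c gene, Cyp2c65, an arachidonic acid epoxygenase of the gut, had 57.4 ± 16.4, and Cyp4f40, Cyp2j6, Cyp4b1 and Cyp2c68 lay between 46.9 and 50.7 CPM per kilobase, again within their spread. Cyp3a11, the main drug-metabolising Cyp3a of mouse liver, had 23.6 ± 11.8, behind Cyp3a13 and Cyp3a25. That value divides by the union of its annotated exons, and with the length of its longest transcript it was 42.8 CPM per kilobase, still behind both. Cyp2b10, the classic CAR target, had 15.4 ± 8.39 and Cyp2s1, an epithelial P450, 14.8 ± 2.60 CPM per kilobase, or 23.1 by its longest transcript.

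**Figure D1:**
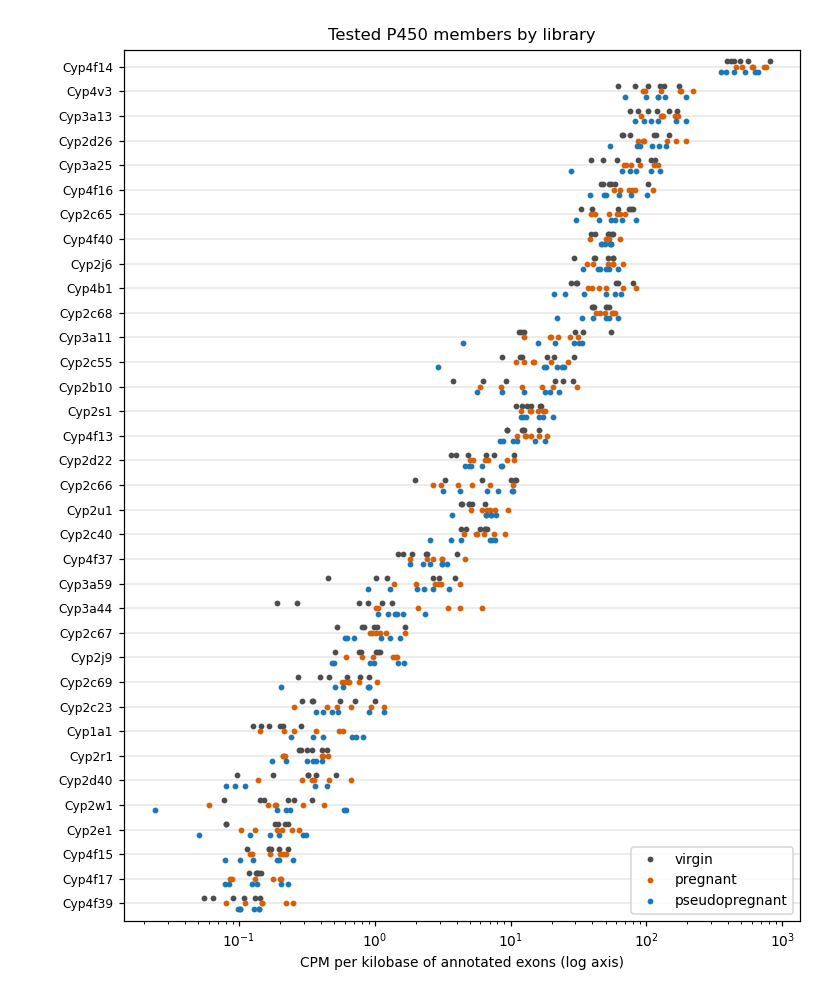
Level of the 35 tested P450 members in each of the 18 libraries, in CPM per kilobase of annotated exons on a log axis, ordered by the mean. Each point is 1 library, coloured by group, and a value of 0 is not drawn; Cyp4f14 stands first and Cyp4f39 last, and the groups overlap in every row.

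Several P450 genes that are prominent in liver had few counts here or none. Cyp1a2 had 4 counts in all, Cyp2a4 9, Cyp2c29 126, and Cyp2c37, Cyp2c50 and Cyp2c54 none. Cyp2e1, which oxidises ethanol, was measured at a mean of 0.395 CPM. The 8 Cyp4a genes, fatty acid hydroxylases and classic targets of Ppara, held 74 counts together, of which Cyp4a10 had 57 and Cyp4a14 none, while Ppara itself was measured at 9.05 to 31.96 CPM. Cyp2g1 and Cyp2t4 had no count.

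The first question of the design is how the pregnant epithelium differs from the virgin one. The largest difference among members was in Cyp3a44, whose mean was 5.87 ± 3.92 CPM (SD, n = 6) in pregnant and 1.501 ± 0.90 CPM in virgin libraries. The lowest, median and highest values were 2.01, 5.41 and 12.02 CPM in pregnant libraries and 0.38, 1.63 and 2.63 CPM in virgin ones. The virgin median was exceeded by each of the 6 pregnant libraries and the highest virgin library by 4 of them, so the groups overlapped in the other 2. The raw counts behind these values were 57 to 427 in pregnant and 13 to 76 in virgin libraries. In edgeR's quasi-likelihood test the log2 fold change was 1.98 (SE 0.46, unadjusted p = 0.000342), and with Benjamini-Hochberg adjustment over all genes p was 0.891, so the difference did not pass. Across the 23 alternatives the adjusted p was at least 0.0623, the lowest from DESeq2, and the log2 fold change was 1.64 without pregnant replicate 4, the highest library.

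Cyp1a1, the archetypal target of the aryl hydrocarbon receptor (chr9:57687928-57703824, plus strand), was a low gene. Its lowest, median and highest values were 0.35, 0.51 and 0.80 CPM in virgin libraries, 0.40, 0.87 and 1.63 CPM in pregnant ones and 0.67, 1.53 and 2.29 CPM in pseudopregnant ones. Raw counts were 11 to 23, 14 to 58 and 20 to 79 in the same order. Between pregnant and virgin the log2 fold change was 0.89 (SE 0.37, unadjusted p = 0.0272, adjusted p = 0.891 by edgeR), with 5 of 6 pregnant libraries above the virgin median. Between pseudopregnant and virgin it was 1.52 (SE 0.36, unadjusted p = 0.000422, adjusted p = 0.515 by edgeR), with 6 of 6 pseudopregnant libraries above that median and overlap at the edge. Over the alternatives the adjusted p was at least 0.323 and at least 0.171. Of its 75-base runs 2.32% occurred in another gene, Cyp1a2, which had 4 counts.

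Cyp2u1, a fatty acid hydroxylase (chr3:131288441-131303227, minus strand), was better counted, though 9.39% of its 75-base runs occurred in another gene. Its lowest, median and highest values were 22.7, 25.8 and 34.0 CPM in the virgin group, 26.8, 35.9 and 50.4 CPM in the pregnant group and 19.5, 36.0 and 40.7 CPM in the pseudopregnant group. The pseudopregnant library of 19.5 CPM, replicate 4, lay below every other library of the series, while the other 5 lay above every virgin library. The log2 fold change was 0.48 (SE 0.17, unadjusted p = 0.00959) for pregnant against virgin and 0.37 (SE 0.17, unadjusted p = 0.0409) for pseudopregnant against virgin, with edgeR adjusted p of 0.891 and 0.515. Cyp4f39 (chr17:32452723-32493320, plus strand), related to the human enzyme that makes very long omega-hydroxy fatty acids for skin lipids, was measured at 0.28 ± 0.10 CPM in the virgin, 0.46 ± 0.19 CPM in the pregnant and 0.34 ± 0.06 CPM in the pseudopregnant group. These are 4 to 23 counts per library. The log2 fold change for pregnant against virgin was 0.69 (SE 0.29, unadjusted p = 0.0270, edgeR adjusted p = 0.891).

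**Figure D2:**
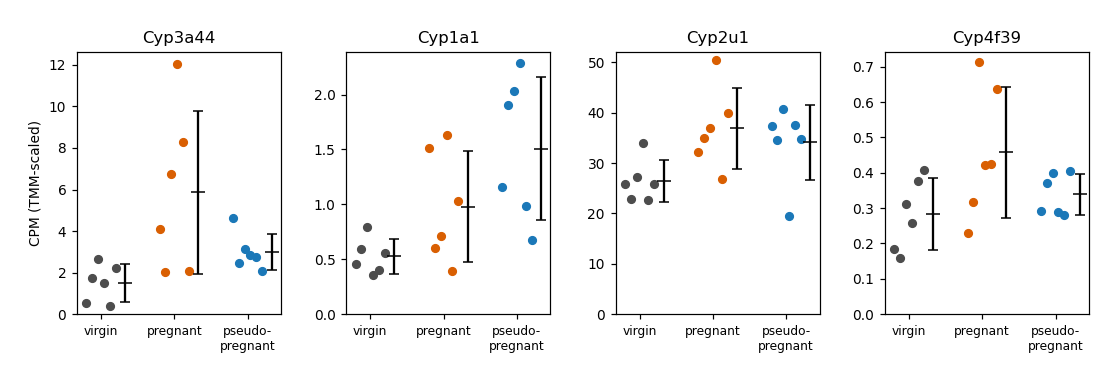
TMM-scaled CPM of Cyp3a44, Cyp1a1, Cyp2u1 and Cyp4f39 in each library (points, linear axes from 0), with the group mean and SD to the right of each group (bars, n = 6). The groups overlap for each gene; pregnant Cyp3a44 spreads from 2.01 to 12.02 CPM and 1 pseudopregnant library has 19.5 CPM of Cyp2u1.

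No member passed an adjusted p of 0.05 in any of the 3 comparisons, and of all 14675 genes 0 (0%) did in each by edgeR. DESeq2 called 0 members and 2 genes for pregnant against virgin and 0 for the others, and limma-voom called 0 throughout. At an unadjusted p under 0.05, 4 of 35 members (Cyp3a44, Cyp1a1, Cyp2u1 and Cyp4f39, each with the higher mean in pregnancy) differed between pregnant and virgin, against 3.68% of all genes in either direction and 2.02% in that direction. Between pseudopregnant and virgin 3 members did (Cyp1a1, Cyp2u1 and Cyp3a44), against 9.37% of all genes and 7.36% in that direction. Without virgin replicate 3 the first count was 8, while genes of all under 0.05 rose from 540 of 14675 to 1953 of 14805. In the same comparison 223 genes of all were under 0.05 without pregnant replicate 4 and 1382 without pregnant replicate 1. Fits without any other library lay between these. The second count was 1 without virgin replicate 1, 2 or 5 or pseudopregnant replicate 1 or 5, beside 540 to 3390 genes. Without any other library of its 2 groups it was 2 or 3, beside 635 to 2585 genes of all. Both comparisons share the virgin libraries. In no comparison did a member's groups fail to overlap, against 0.0681% of all genes for either state against virgin and 0.0273% for pregnant against pseudopregnant.

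Beside Cyp1a1 and Cyp2u1, 7 further members that lead their subfamilies are given here. In virgin, pregnant and pseudopregnant libraries Cyp4v3 had 431 ± 151, 569 ± 191 and 472 ± 161 CPM (SD, n = 6). Cyp2d26 had 175 ± 59.1, 233 ± 80.0 and 180 ± 54.9 CPM, and Cyp4b1 109 ± 48.8, 121 ± 40.8 and 95.6 ± 40.95 CPM. Cyp2j6, of a subfamily of arachidonic acid epoxygenases, had 166 ± 38.9, 186 ± 41.4 and 173 ± 33.8 CPM, and Cyp2s1 68.8 ± 11.4, 74.9 ± 11.04 and 75.02 ± 16.7 CPM. Of the low ones, Cyp2r1 had 0.73 ± 0.14, 0.68 ± 0.25 and 0.65 ± 0.19 CPM, and Cyp2w1, known from fetal gut and colon tumours, 0.30 ± 0.15, 0.33 ± 0.19 and 0.48 ± 0.36 CPM. For these 7 members the groups overlapped and the unadjusted p was above 0.05 in each comparison.

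Across the tested members the pregnant values were mostly above the virgin ones by a little. The log2 fold change was positive for 30 of 35 members, against 48.5% of all genes. Its median was 0.23 for the members (0.36 without virgin replicate 3) and -0.01 for all genes. With each library left out in turn, 28 to 31 members were positive. All 8 tested Cyp4f members (0.01 to 0.69), all 3 Cyp2d members (0.23 to 0.41), 4 of 5 Cyp3a members and 5 of 8 Cyp2c members were positive. The members below 0 were Cyp3a11 (-0.21), Cyp2c65 (-0.15), Cyp2c66 (-0.41), Cyp2c55 (-0.02) and Cyp2r1 (-0.13), the vitamin D hydroxylase of the set. Beside this, a score of villus over crypt content also had a higher mean in pregnancy. The score is the mean log2 level of 20 absorptive enterocyte genes minus that of 25 proliferation genes, none of them a P450, and its mean was 0.32 ± 0.74 (SD, n = 6) for pregnant, -0.22 ± 0.77 for virgin and -0.10 ± 0.78 for pseudopregnant libraries, with overlapping ranges. Adjusted for this score, 24 of 35 members were positive and their median was 0.05, while Cyp3a44 had a log2 fold change of 1.78 and Cyp1a1 of 0.73. The 48.5% and -0.01 of all genes belong to the fit without the score. In bulk samples such as these, fewer cells of a type and less RNA per cell cannot be told apart.

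The second question is whether pseudopregnancy, a mated state without embryos, differs from the virgin state. The most abundant members had close means in both: Cyp4f14 had 1212 ± 308 CPM in pseudopregnant and 1251 ± 368 in virgin libraries, Cyp3a13 378 ± 128 and 344 ± 106, and Cyp2c65 109 ± 35.4 and 118 ± 38.6 CPM. Besides Cyp1a1 and Cyp2u1, Cyp3a44 stood out with 2.99 ± 0.87 CPM against 1.501 ± 0.90 CPM. Its log2 fold change was 0.9999 (SE 0.46, unadjusted p = 0.0421, edgeR adjusted p = 0.515), and 6 of 6 pseudopregnant libraries lay above the virgin median. Of the 35 members 23 had a positive log2 fold change, against 50.6% of all genes, with a median of 0.06 against 0.00. That count rested on single libraries: it was 13 without virgin replicate 2 and 15 without pseudopregnant replicate 3. It was also 15 with each library's length slope, the trend of its gene levels with annotated exon length, as a covariate. In that fit 311 of 14675 genes had an unadjusted p under 0.05 by edgeR, 162 of them higher in pseudopregnancy. Without the covariate 1375 did, 1080 of them higher, and the 50.6% belongs to that fit. Cyp2d40, at 0.33 ± 0.32 CPM against 0.54 ± 0.27, had the lowest value, -0.77.

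**Figure D3:**
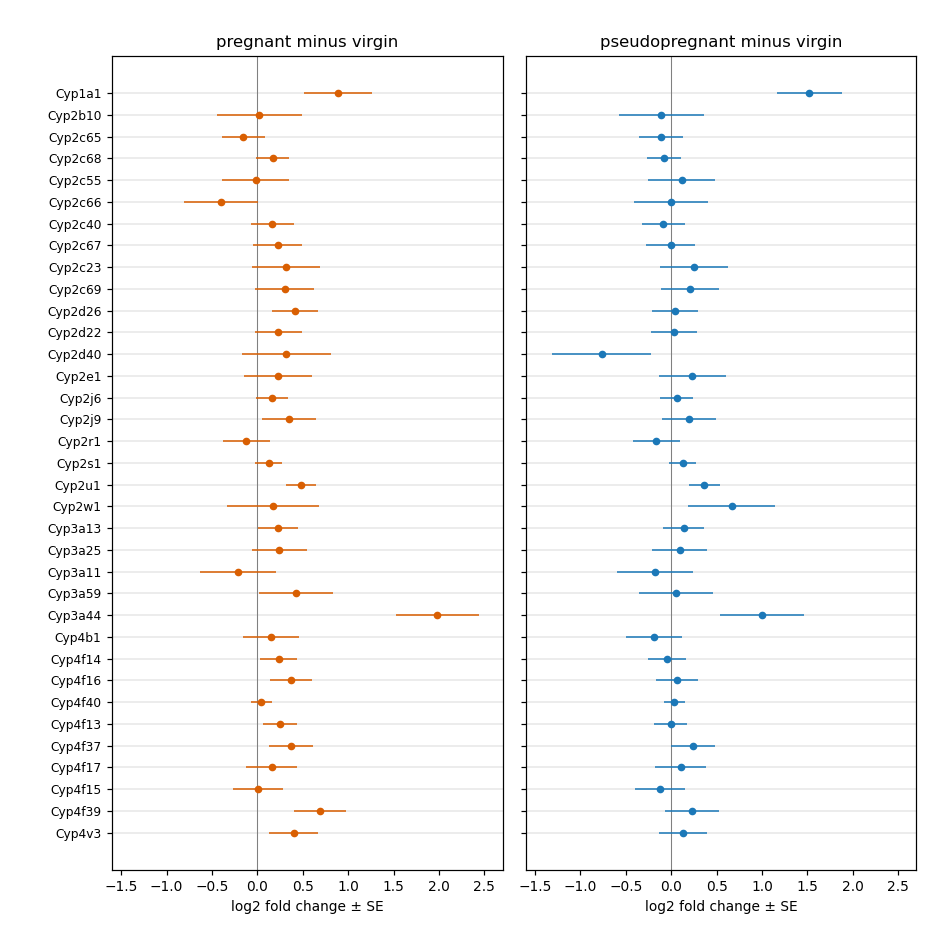
Log2 fold change (points) with its SE (bars) of the 35 tested members, pregnant minus virgin on the left and pseudopregnant minus virgin on the right, grouped by subfamily. On the left 30 of 35 points lie right of 0; Cyp3a44 is farthest right on the left and Cyp1a1 on the right, and both comparisons share the virgin libraries.

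The third comparison sets pregnancy against pseudopregnancy. Only Cyp3a44 among the 35 members had an unadjusted p under 0.05, against 2.35% of all genes and 0.763% in that direction. Leaving out 1 library at a time gave 0 (pregnant replicate 3 or 5, pseudopregnant replicate 2 or 4) to 4 members (pseudopregnant replicate 1). Genes of all under 0.05 moved too, with 120 to 437 in the fits that gave 0 members and 1568 of 14802 in the fit that gave 4. The log2 fold change of Cyp3a44 was 0.98 (SE 0.43, unadjusted p = 0.0352, edgeR adjusted p = 0.920), and 0.64 without pregnant replicate 4. Cyp1a1 had -0.63 (SE 0.33, unadjusted p = 0.0731, edgeR adjusted p = 0.920), with 1 of 6 pregnant libraries above the pseudopregnant median. The sign was positive for 27 of 35 members, against 48.4% of all genes, with a median of 0.13 against -0.01. That median was 0.03 without pseudopregnant replicate 4 and 0.29 without pseudopregnant replicate 3. Adjusted for the score of villus over crypt content, 20 were positive and the median was 0.03. The 48.4% and -0.01 of all genes belong to the fit without the score.

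The libraries themselves differed in the villus-minus-crypt score, and many P450 members rose with it. Along the villus-minus-crypt score, with group means in the model, 15 of 35 members passed an adjusted p of 0.05 in edgeR and all 15 rose, against 23.2% of all genes in either direction and 10.5% that rose. Per log2 unit of score Cyp4b1, an enzyme of furans and fatty acids, rose by 0.63 (SE 0.11, adjusted p = 0.000684), Cyp2d26 by 0.54 (SE 0.08, adjusted p = 0.000254), Cyp4v3 by 0.52 (SE 0.10, adjusted p = 0.00124), Cyp3a13 by 0.45 (SE 0.08, adjusted p = 0.000779) and Cyp4f14 by 0.39 (SE 0.07, adjusted p = 0.000757). The others were Cyp2c23, Cyp2c65, Cyp2c68, Cyp2d22, Cyp2d40, Cyp2j6, Cyp3a25, Cyp4f13, Cyp4f16 and Cyp4f37, with slopes of 0.27 to 0.83. All 3 tested Cyp2d members passed, 4 of 8 Cyp4f, 3 of 8 Cyp2c and 2 of 5 Cyp3a. Within Cyp4f, Cyp4f40 had a slope of -0.02 (SE 0.07, edgeR adjusted p = 0.859) at a level of 126 CPM, next to Cyp4f16 with 0.47 (SE 0.07, edgeR adjusted p = 0.000332) at 206 CPM. Cyp1a1 (0.28, SE 0.20), Cyp3a44 (0.40, SE 0.23) and Cyp2s1 (0.09, SE 0.08) did not pass, nor did any of the 5 members with a negative slope. The slope was positive for 30 of 35 members, against 48.1% of all genes, and the lowest was Cyp2e1 at -0.54 (SE 0.20).

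All 3 libraries numbered 3 were rich in villus genes, with scores of 1.27, 1.46 and 1.05. Without the libraries farthest from the median score, virgin and pregnant replicate 3, 8 members passed. With the replicate number as a block 0 members and 0 genes passed, while 33 of 35 member slopes were positive. The score and the P450 levels come from the same libraries, so their relation is a description of these cell mixtures.

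**Figure D4:**
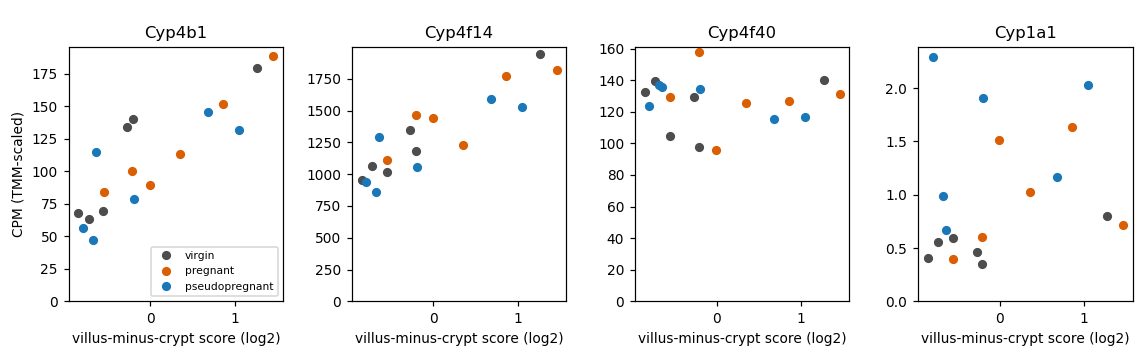
TMM-scaled CPM of Cyp4b1, Cyp4f14, Cyp4f40 and Cyp1a1 (linear axes from 0) against the villus-minus-crypt score of each of the 18 libraries, coloured by group. Cyp4b1 and Cyp4f14 rise with the score, with slopes of 0.63 and 0.39 on the log2 scale, while Cyp4f40 has a slope of -0.02.

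Spread between libraries of 1 group also differed by member. The SD of log2 CPM within groups was lowest for Cyp4f40 (0.20) and Cyp2s1 (0.26) among members of at least 10 CPM, and highest for Cyp2b10 (0.96), Cyp3a11 (0.88), Cyp2c66 (0.83) and Cyp2c55 (0.82). Cyp2b10 ran from 7.97 to 60.9 CPM among virgin, 12.6 to 65.2 CPM among pregnant and 11.9 to 48.2 CPM among pseudopregnant libraries, so its variation lay within each group. Pseudopregnant replicate 4 was the lowest library of all for Cyp3a11 (22.9 CPM, against 80.9 to 172 in the other 5 of its group), Cyp2c55 (5.79 against 35.05 to 49.4) and Cyp3a25 (57.6 against 138 to 264 CPM). That library had a villus-minus-crypt score of -0.80, the lowest of its group, but its Cyp1a1 was the highest of the series at 2.29 CPM.

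Many of the variable members varied together across libraries. Over 18 libraries, as log2 CPM centred on the group mean, Cyp2c65 and Cyp4v3 had Pearson r = 0.952 and Spearman rho = 0.940 (permutation p = 1e-05 for both, the smallest that 100000 permutations within groups can give; 0.000595 and 0.000496 after Benjamini-Hochberg adjustment over 595 pairs). Without the 2 libraries farthest from the median r was 0.929, and after the villus-minus-crypt score was removed it was 0.954. Cyp3a11 and Cyp2c55 had r = 0.920 and rho = 0.884 (permutation p = 4e-05 and 5e-05, adjusted 0.00085 and 0.000992), with r of 0.856 without 2 libraries and 0.891 after the score. Cyp2b10 and Cyp2c65 had r = 0.908 and rho = 0.911 (permutation p = 2e-05 for both, adjusted 0.000626), with r of 0.895 and 0.863. For Cyp4f14 and Cyp4f13 r was 0.906 and rho 0.886 (permutation p = 3e-05 and 5e-05, adjusted 0.000714 and 0.000992), 0.884 without 2 libraries and 0.577 after the score. Among the 20 members of at least 10 CPM, 42 of 190 pairs (22.1%) had r over 0.8, against 5.94% of pairs of all 8443 genes at that level. After the villus-minus-crypt score was removed from every gene, 22 of the member pairs (11.6%) did, against 9.02% of all pairs. These pairs share libraries and scaling, and members within a subfamily can share reads.

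Cyp3a44 and Cyp1a1 had no partner as close as in these pairs, which they shared with other members: the closest to Cyp4f40 was Cyp2w1, with r = 0.455 and rho = 0.441 (permutation p = 0.0344 and 0.0752, adjusted 0.0889 and 0.161), and to Cyp2r1 it was Cyp3a44, with r = 0.298 and rho = 0.263 (permutation p = 0.251 and 0.322, adjusted 0.414 and 0.491). The member closest to both Cyp3a44 and Cyp1a1 was Cyp2d40, with r = 0.507 and rho = 0.484 for Cyp3a44 (permutation p = 0.00988 and 0.0359, adjusted 0.0332 and 0.0883), 0.466 without 2 libraries and 0.329 after the score. For Cyp1a1 r was 0.327 and rho 0.302 (permutation p = 0.238 and 0.242, adjusted 0.398 and 0.397), 0.129 without 2 libraries. With Cyp3a11, its close relative in sequence, Cyp3a44 had r = 0.213 and rho = 0.185 (permutation p = 0.367 and 0.464, adjusted 0.547 and 0.628), 0.0675 without 2 libraries.

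**Figure D5:**
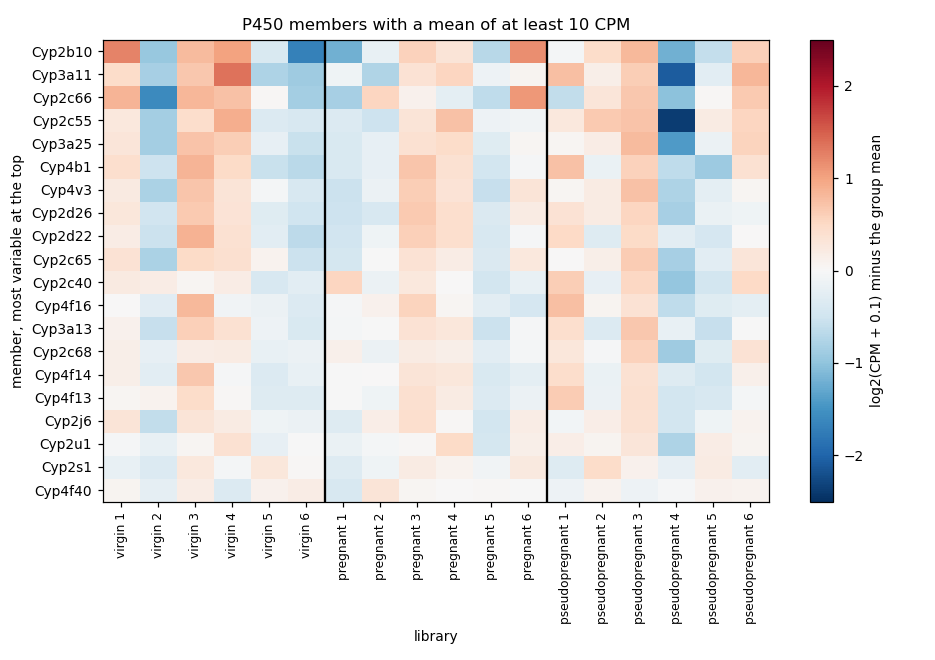
Deviation from the group mean, as log2(CPM + 0.1), of the 20 members with a mean of at least 10 CPM (rows, most variable at the top) in each library (columns, groups divided by black lines). Red is above and blue below the group mean; pseudopregnant replicate 4 is low in most rows, down to 22.9 CPM for Cyp3a11 and 5.79 CPM for Cyp2c55, while Cyp2s1 and Cyp4f40 vary little.

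The partners of P450 enzymes did not pass the test in any comparison. All 10 partner genes were measured and 0 of 10 passed; for pregnant against virgin 4 were positive, with a median of -0.02. Por, the electron donor, had 122, 119 and 101 CPM in virgin, pregnant and pseudopregnant libraries. Pgrmc1, a haem-binding P450 partner, had 272, 323 and 257 CPM. Along the villus score 4 of the 10 passed upward, Por (0.30), Pgrmc1 (0.32), Cyb5r3 (0.32) and the epoxide hydrolase Ephx2 (0.59), against 10.5% of all genes, and 1 downward, Ephx1 (-0.40). With the replicate number as a block none of the 10 passed.

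Of 18 xenobiotic and lipid-sensing regulators 17 were tested and none passed between groups. The PXR gene Nr1i2 had 95.4, 103 and 98.6 CPM in virgin, pregnant and pseudopregnant libraries, the CAR gene Nr1i3 21.8, 23.0 and 23.1, and Hnf4a 489, 561 and 620 CPM. Ahr, the receptor of Cyp1a1's known inducers, had 7.83, 8.28 and 9.79 CPM. Ppara had 11.2, 12.4 and 19.2 CPM, and its log2 fold change between pseudopregnant and virgin was 0.79 (unadjusted p = 0.00467 by edgeR). Cdx2, an intestinal identity factor, had -0.39 (unadjusted p = 0.0330 by edgeR) in the same comparison. These were the only regulators under 0.05 there, 1 higher and 1 lower of 17, against 9.37% of all genes.

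Other known targets of the same receptors were taken from lists made for this set. Of 6 aryl hydrocarbon receptor targets outside the P450s 4 were tested and 0 passed, with medians of -0.08 for pregnant and 0.05 for pseudopregnant against virgin, and -0.01 and 0.00 for all genes. Tiparp had 25.5, 29.6 and 31.5 CPM in virgin, pregnant and pseudopregnant libraries and Nqo1 22.1, 18.8 and 19.8 CPM, while the receptor's repressor Ahrr had 14 counts in all and Aldh3a1 none. Of 8 PXR and CAR targets 7 were tested and 0 passed, with medians of 0.36 and 0.18. Of these 7, 6 and 4 were positive, against 48.5% and 50.6% of all genes. Adjusted for the villus-minus-crypt score, the medians were 0.24 and 0.19. The drug efflux pump Abcb1a had 157, 224 and 190 CPM and the carboxylesterase Ces2a 322, 422 and 364 CPM. Among 20 P450 genes outside the set 5 were tested and 0 passed, the highest being Cyp51, a sterol demethylase, at 165, 155 and 146 CPM, and Cyp27a1, a sterol hydroxylase, at 28.4, 30.6 and 30.2 CPM. Along the villus score Cyp27a1 rose by 0.35, while Cyp20a1 and Cyp39a1 fell by 0.46 and 0.40, and none of the 5 passed with the replicate block.

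Near-identical copies limit some members. In the Cyp2c cluster 45.9% of the 75-base runs of Cyp2c40, 42.6% of Cyp2c69, 36.0% of Cyp2c67 and 28.5% of Cyp2c68 occurred in another gene. Summed into 1 row, Cyp2c40 and Cyp2c69 had log2 fold changes of 0.18 (SE 0.24) for pregnant and -0.06 (SE 0.24) for pseudopregnant against virgin. Cyp3a41a and Cyp3a41b together had 133 counts (71 and 62) and could not be tested. Their counts were close library by library, such as 10 and 9 in virgin replicate 4. Reads counted for both genes would enter such a sum more than once, which was not tested. No 75-base run of Cyp3a13, Cyp2j6, Cyp2c55, Cyp4f39 or Cyp4f40 occurred in another gene, and 0.162% of those of Cyp4f14 did.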

How the data were processed

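RNA of sorted ileal epithelium was sequenced in 18 libraries, 6 per group, after poly(A) enrichment and a NEBNext Ultra II Directional preparation, per the labels' protocols. Each library has a table of raw counts deposited by the authors, keyed by Ensembl gene. The submitters' processing notes name build GRCm38 and, among tools, HISAT2 2.0.4, DESeq2 1.24.0, featureCounts, Subread 2.0.0 and FastQC 0.11.5. Whether counting used strand, and which annotation, is not given in the sources used here, and genes that overlap or are near-identical may share reads. GENCODE M21 gave symbols for 47310 of 47729 genes.

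Titles gave each library's group and number. Genes passed edgeR's filterByExpr with the 3 groups (14675 genes), and after TMM scaling all 18 libraries entered 1 quasi-likelihood fit of the 3 group means (edgeR 4.0.16, legacy = FALSE, R 4.3.3). Tests were two-sided, with Benjamini-Hochberg adjustment over all genes and a threshold of 0.05. CPM are TMM-scaled, given as mean ± SD. The slope on the villus-minus-crypt score was tested in the same model with the score added. Correlations used log2(CPM + 0.1) centred by group, with 100000 permutations within groups (Python 3.11.15, scipy 1.17.1). Read sharing was counted as runs of 75 bases of annotated transcripts found in another gene, and members that share at least 20% of them with each other were summed. The model was also run on simulated counts, drawn independently for each gene and library. Genes of the real libraries varied together, so that run checks only the code.

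Members, lists, tests and alternatives were chosen with earlier results of these data known. Named with values are Cyp3a44, Cyp1a1, each tested member with an unadjusted p under 0.05 in a comparison, and the highest tested member per kilobase of each subfamily; further members are named after their values were seen. The lists of goblet, Paneth, enteroendocrine, tuft, stromal and acinar markers were computed but are not reported here. Alternatives were other scalings and filters, DESeq2 1.42.0, limma-voom (limma 3.58.1), edgeR's default fit, only the 12 libraries compared, covariates, a replicate block and each library left out.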

Additional observations from a re-analysis of the deposited data

Results flagged for a closer look

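Cyp2u1 had 19.5 CPM in pseudopregnant replicate 4, against 34.7 to 40.7 CPM in the other 5 pseudopregnant libraries. The gap of this library to its nearest neighbour was 0.714 of the range of the group, above Dixon's 95% critical value of 0.625 for 6 samples. It was the only 1 of 48 groups examined (16 named members in 3 groups). Chance gives about 1 in 20 groups, so 1 in 48 is no more than chance gives. The same library was the lowest of the series for Cyp3a11 (22.9 CPM) and Cyp2c55 (5.79 CPM). Without it the log2 fold change of Cyp2u1 between pseudopregnant and virgin was 0.48 in place of 0.37.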

How the results depend on the processing

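No single-member fold change or slope reversed under any of 431 alternatives of 18 results, and 0 members were called between groups under each alternative run. The 18 results are those of Cyp3a44 and Cyp1a1, fold changes with an unadjusted p under 0.05 and slopes of named members past the threshold. Results near 0 did not enter, and most alternatives only left out 1 library, so a reversal was unlikely from the start. For pregnant against virgin, DESeq2 called 2 genes of all (Gm42427 and Bco1, named after their values were seen) and the replicate block 1 (Gm42427). What same-numbered libraries share is not given in the labels. Their deviations from the group means correlated at -0.661 to 0.842 (median 0.228, 12 of 18 pairs over 0.1). Pairs of number 3 had 0.842, 0.434 and 0.486, and pairs of number 2 had 0.185, -0.661 and -0.213. Closest to their own number in both other groups were 3 of 18 libraries. Whether the number marks a shared factor was not tested. With the replicate block and the villus-minus-crypt score together, the slope called 0 members and 0 genes, against 15 and 3404. Without the 2 libraries farthest from the median score it called 8 members and 738 genes, and leaving out 1 library at a time gave 10 to 19 members and 1912 to 3598 genes, the lowest gene count without virgin replicate 3. Of single slopes, Cyp2j6 was no longer past the threshold under 6 of 25 alternatives and Cyp2c65 under 4 of 25; those of Cyp2d26, Cyp3a13, Cyp4b1, Cyp4f14 and Cyp4v3 were lost only under the block, where the slopes of these 5 were 0.84, 0.32, 0.64, 0.32 and 0.69, against 0.54, 0.45, 0.63, 0.39 and 0.52. The cause was not tested. Other scalings moved the median of all genes by at most 0.03 (log2), and upper quartile scaling gave 242 of 555 genes with an unadjusted p under 0.05 higher in pregnancy, against 296 of 540. Length by the longest transcript moved 4 of the levels given per kilobase by more than their SD: Cyp3a11 (23.6 to 42.8), Cyp2s1 (14.8 to 23.1), Cyp4f16 (67.1 to 91.9, then above Cyp3a25) and Cyp4f40 (50.7 to 57.1). Removing the villus score from the member pairs and adjusting the receptor target lists for it were chosen after seeing the data. Low totals limit Cyp1a1 (565 counts), Cyp4f39 (205) and the 45 members below the filter.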
